A study of Homo sapiens with 6 samples.

Results

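Replication checkpoint and DNA repair genes were followed in primary effusion lymphoma cell lines treated with 3-AP (triapine), an inhibitor of ribonucleotide reductase. The set holds 31 genes chosen by name and role and not by a cut on values, though earlier results of these data were known. Of these, 27 had at least 1 annotated probe (49 probes) and 25 passed the detection filter, out of 15334 features tested in all. RAD1, BRCA2, FANCA and FANCD2 were not analysed here. The kinase gene ATR (3 probes) and the clamp gene HUS1 (2 probes) had probes but did not pass the filter. Primary effusion lymphoma is a herpesvirus-associated B cell cancer of body cavities, and BCP1, BCBL1 and BC1 are established lines of it. Each line was grown with vehicle or with 2.5 µM 3-AP and harvested after 48 h, so there were 3 vehicle samples and 3 treated samples in 3 pairs. No line carried an engineered allele in the labels. A line is a single culture per agent. The p-values of 3-AP against vehicle measure the spread of the response between the 3 pairs, combined by limma with the spread typical of all features.

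When deoxyribonucleotides run short, replication forks stall and single-stranded DNA is exposed. The kinase ATR is recruited there by ATRIP, is switched on by TOPBP1 and the RAD9A-RAD1-HUS1 clamp, and acts through CHEK1 and WEE1 to hold back mitosis. Broken forks engage ATM and CHEK2, and are rebuilt by homologous recombination and by the Fanconi pathway. Much of this signalling acts by phosphorylation, which a transcript array does not measure. Many of the genes are also transcribed in a cell cycle dependent way.

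Bead arrays were read as 1 intensity per probe. Between 37.0% and 39.2% of 47323 probes were detected on the 4 arrays of BCBL1 and BC1, which have detection p-values of their own. The arrays labelled BCP1 and BCBL1 were alike. Over all probes their vehicle arrays correlated at 0.995 and their 3-AP arrays at 0.993, against 0.990 for vehicle with 3-AP within BCP1 and 0.982 within BC1. BC1 correlated with the other lines at 0.947 to 0.962. The 3 pairs may therefore hold less independent information than 3 unrelated lines would, and the values without each line are given where a call turns on them. Plasma cell markers fitted the labelled cell type, with CD38, IRF4, PRDM1, SDC1, TNFRSF17 and XBP1 detected on all 4 arrays and JCHAIN on none. The mature B cell factors PAX5 and EBF1 were detected on none. No T or NK cell marker of 8 was detected on all 4 arrays, and of 8 myeloid markers LYZ was. Among these markers TNFRSF17 (log2 fold change 0.57) and the B cell receptor gene CD79B (0.48) rose with 3-AP, no T, NK or myeloid marker was called, and their part in the results was not tested.

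The main comparison asked whether transcripts of these genes differed between 3-AP and vehicle within each line. A single gene did. EXO1, the exonuclease that resects DNA ends and works in mismatch repair, rose 1.46-fold, and the other 24 genes did not pass the test. The mean log2 fold changes ran from -0.30 for CHEK1 to 0.55 for EXO1, with standard errors of 0.08 to 0.13 (n = 3 pairs). Values of a gene are listed below in the order BCP1, BCBL1, BC1. The smallest absolute log2 change among features that passed was 0.34, and most values in this set were smaller than that.

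In counts, 1 of 25 genes passed at an adjusted p under 0.05, against 7.11% of all features. That gene was higher, where 3.71% of features were called higher and 3.4% lower. Over the set 14 genes had a positive and 11 a negative mean. The median log2 fold change was 0.06, beside 0.00 over all features. All 3 lines moved the same way for 13 of 25 genes (8 positive, 5 negative), and for 48.2% of features. Treated and vehicle values did not overlap for 3 genes, EXO1, PALB2 and RAD18, against 17.0% of features. These shares lie near or below those of all features.

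**Figure D1:**
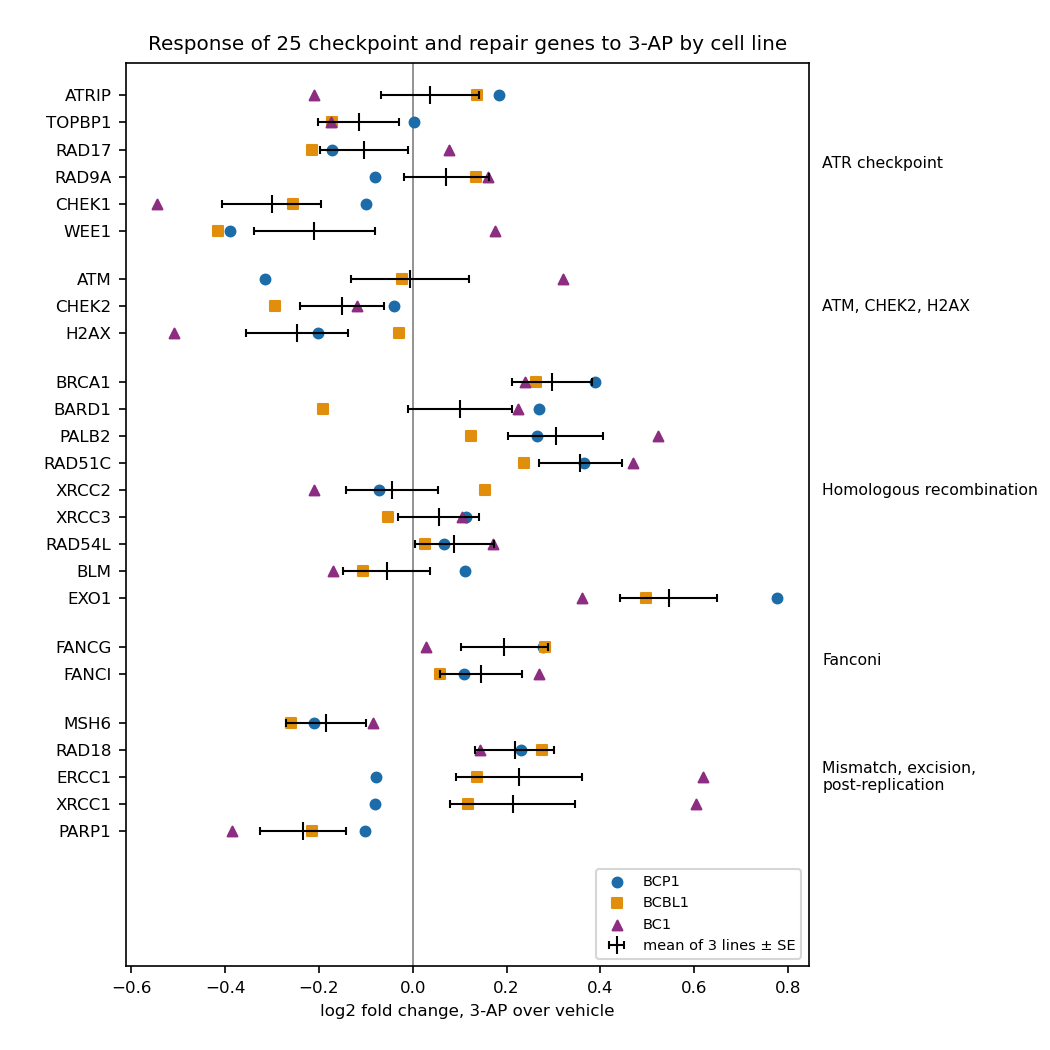
Log2 fold change of 3-AP over vehicle (x axis) for each of 25 genes (y axis), grouped by role. Circles, squares and triangles are the lines BCP1, BCBL1 and BC1, and black bars are the mean of 3 lines with its standard error. EXO1 lies to the right of 0 in every line, CHEK1 to the left in every line, and WEE1 and ATM change side between lines.

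Homologous recombination held the gene that passed and the next ones by p. EXO1 had processed intensities of 989.0, 909.3 and 1188.7 with vehicle and of 1695.4, 1283.3 and 1526.9 with 3-AP. Every treated value was above every vehicle value, and the ratio was highest in BCP1 (1.71-fold) and lowest in BC1 (1.28-fold). The log2 fold change was 0.55 ± 0.10 (SE, n = 3 pairs, limma adjusted p = 0.0270), the 535th smallest p of 15334. A second detected EXO1 probe, with lower intensities, had log2 fold changes of 0.46, 0.37 and 0.14. The call was lost without BCP1 (adjusted p = 0.158), without BCBL1 (0.0557) and with those 2 lines averaged to a single pair (0.162), while the log2 fold change stayed between 0.43 and 0.64 in all alternatives. After background subtraction the rise was 1.52-fold and not called (adjusted p = 0.120). In bulk cultures more cells in a given cycle phase and more transcript per cell cannot be told apart.

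EXO1 is the gene whose promoter is shown, since it was the single gene called. Its RefSeq promoter window (GRCh38.p14, chr1:241847954-241848253, plus strand, 250 bases before to 50 after the transcription start) contains a match to the E2F motif, set in capitals.

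EXO1: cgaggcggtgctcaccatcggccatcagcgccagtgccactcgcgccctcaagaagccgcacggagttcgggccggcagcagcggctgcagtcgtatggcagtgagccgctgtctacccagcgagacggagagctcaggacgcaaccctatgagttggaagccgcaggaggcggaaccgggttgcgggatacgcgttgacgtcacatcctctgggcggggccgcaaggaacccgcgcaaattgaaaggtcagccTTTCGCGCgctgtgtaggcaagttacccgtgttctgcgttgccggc

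E2F factors are the main activators of S phase genes. The search covered TTTCCCGC, TTTCGCGC, TTTGCCGC and TTTGGCGC on both strands. Promoter windows were matched for 23 of the 25 tested genes, and 4 of them (17.4%) held a match, against 3.31% of 35116 promoters. The 4 stretches are shown to set genes with the same motif beside each other, with the match in capitals and each written 5′ to 3′ on the strand of the gene.

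EXO1: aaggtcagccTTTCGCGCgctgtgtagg

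MSH6: tccccccagaTTTCCCGCcagcaggagc

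TOPBP1: cgcgcggttgGCGCGAAAgtcggttccc

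XRCC2: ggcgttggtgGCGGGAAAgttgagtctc

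The match began at base 5 of the transcribed stretch in EXO1, at base 4 in MSH6 and at base 22 in XRCC2. In TOPBP1 it began 7 bases before the start, and in TOPBP1 and XRCC2 it lay on the opposite strand. Of these genes EXO1 alone was called, and the mean log2 fold changes of MSH6 (-0.18), TOPBP1 (-0.11) and XRCC2 (-0.04) were negative. The CHR element (TTTGAA or TTCGAA), which marks many mitotic genes, was found in 3 of the 23 windows (against 16.4% of all), those of ATM, H2AX and XRCC1. A CCAAT box was found in 12 (52.2%, against 34.6%). Both were searched on both strands, and the EXO1 window held 0 matches of either.

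RAD51C, which acts in strand exchange during recombination, had vehicle intensities of 1407.7, 959.0 and 989.0 and 3-AP intensities of 1814.5, 1129.8 and 1369.9. Each line was higher with 3-AP, but the vehicle level of BCP1 exceeded the treated levels of the other lines. Its log2 fold change was 0.36 ± 0.09 (SE) and missed the threshold (adjusted p = 0.0541). Other detected RAD51C probes gave mean values of 0.15 and 0.07.

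BRCA1, a ubiquitin ligase subunit that steers breaks into recombination, read 317.7, 305.1 and 573.0 with vehicle and 416.1, 365.8 and 676.2 with 3-AP. Within each line the treated value was the higher, and the groups overlapped because BC1 was high under either agent. The log2 fold change was 0.30 ± 0.08 (adjusted p = 0.0766), and 0.10 at its second probe. PALB2, which bridges BRCA1 and BRCA2, read 531.2, 546.6 and 567.1 with vehicle and 638.4, 595.9 and 815.1 with 3-AP. These groups did not overlap, and the log2 fold change was 0.30 ± 0.10 (adjusted p = 0.112).

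**Figure D2:**
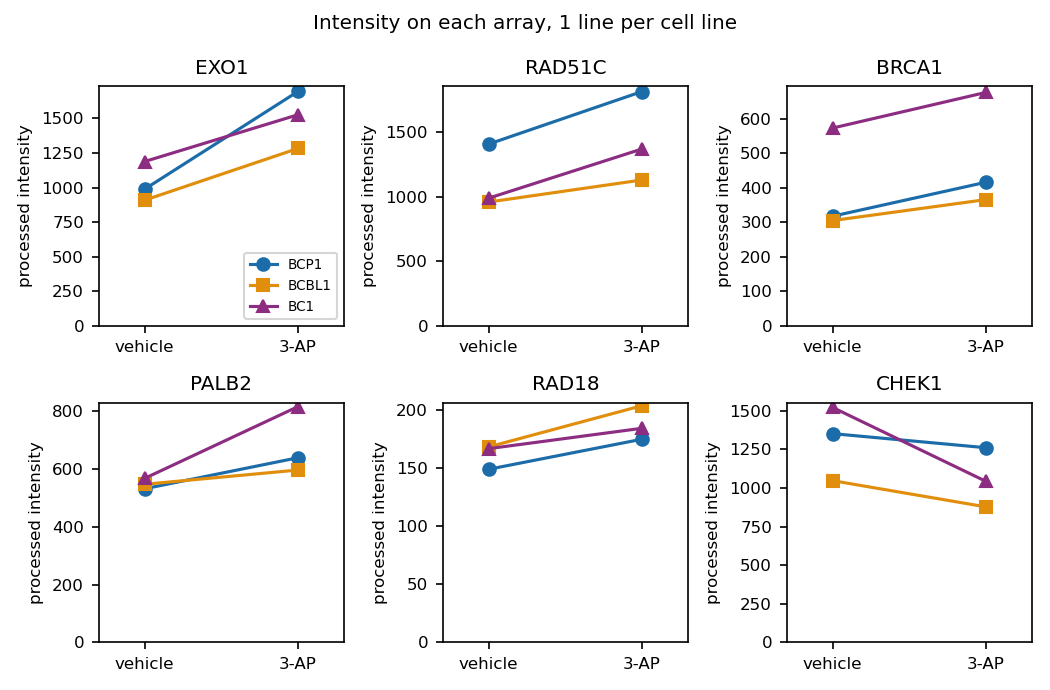
Processed intensity (y axis, linear, from 0) with vehicle and with 3-AP (x axis) for 6 genes. Each coloured line joins the 2 arrays of a cell line. EXO1, RAD51C, BRCA1, PALB2 and RAD18 slope upward in each line and CHEK1 slopes downward in each line, and of these EXO1 alone was called.

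The other recombination genes had smaller values. BARD1, the partner of BRCA1, had log2 fold changes of 0.27, -0.19 and 0.22, with a mean of 0.10 ± 0.11. The translocase gene RAD54L had a mean of 0.09, the recombination gene XRCC3 of 0.06, XRCC2 of -0.04 and the helicase gene BLM of -0.06. RAD54L was positive in each line, and the other 3 had mixed signs. Over the 9 tested recombination genes the median log2 fold change was 0.10, with 7 positive and 2 negative means. That median was 0.25 without BCBL1 and 0.047 without BC1.

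The ATR checkpoint genes gave no call among 6 tested and had a median of -0.11. CHEK1, the effector kinase of ATR, had intensities of 1351.9, 1047.4 and 1521.4 with vehicle and 1260.8, 877.6 and 1042.7 with 3-AP. Each line was lower when treated, by the most in BC1, while the groups overlapped. The log2 fold change was -0.30 ± 0.11 (SE, adjusted p = 0.126). WEE1, the kinase that holds the mitotic kinase CDK1 inactive, read 639.4, 592.5 and 1016.5 with vehicle and 488.1, 444.3 and 1147.3 with 3-AP. It was lower with 3-AP in BCP1 and BCBL1 and higher in BC1, which gave a mean of -0.21 ± 0.13 (adjusted p = 0.352).

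ATRIP, the partner of ATR, had log2 fold changes of 0.18, 0.14 and -0.21. For the activator gene TOPBP1 they were 0.00, -0.17 and -0.17. The clamp loader gene RAD17 had -0.17, -0.21 and 0.08, and the clamp subunit gene RAD9A had -0.08, 0.13 and 0.16. None of these 4 kept the same sign across lines, and TOPBP1 was near 0 in BCP1. The brightest ATR probe read 164.7, 149.1 and 146.1 with vehicle and 141.7, 145.6 and 144.1 with 3-AP. No ATR probe was detected on any of the 4 arrays, so its transcript was not measurable here. The brighter HUS1 probe was detected on 1 array of 4 and read 143.2 to 191.4.

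In the ATM branch no gene of 3 passed, and the means were all negative. The kinase gene ATM had log2 fold changes of -0.32, -0.02 and 0.32, which cancelled to -0.01 ± 0.13. A second ATM probe had a mean of -0.20. CHEK2, the effector kinase of ATM, had -0.04, -0.29 and -0.12. H2AX, the histone variant phosphorylated around breaks, read 435.0, 427.1 and 632.3 with vehicle and 378.4, 418.4 and 444.2 with 3-AP. Each line was lower with 3-AP, by the most in BC1, and the mean was -0.25 ± 0.11 (adjusted p = 0.205).

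Of the Fanconi genes, which repair crosslinks between strands, 2 of 4 were tested and neither passed. FANCG, a core complex subunit, had log2 fold changes of 0.28, 0.28 and 0.03. FANCI, the partner of FANCD2, had 0.11, 0.06 and 0.27. Both were positive throughout, with means of 0.20 ± 0.09 and 0.14 ± 0.09.

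The remaining 5 genes serve mismatch, excision and post-replication repair, and none passed. MSH6, a mismatch recognition subunit, had -0.21, -0.26 and -0.08 on the log2 scale. PARP1, the sensor of strand breaks, read 9229.1, 8950.1 and 6438.5 with vehicle and 8595.3, 7713.7 and 4927.1 with 3-AP, lower in each line, at a mean of -0.23 ± 0.09 (adjusted p = 0.159). RAD18, the ubiquitin ligase that opens post-replication repair, read 148.7, 167.9 and 166.4 with vehicle and 174.5, 203.3 and 183.9 with 3-AP. These groups did not overlap, but the probe was dim, and the log2 fold change of 0.22 ± 0.08 (adjusted p = 0.154) became 0.68 after background subtraction (adjusted p = 0.102).

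ERCC1, a subunit of an excision nuclease, and XRCC1, the scaffold of single-strand break repair, had larger values in BC1 than in the other lines. ERCC1 read 535.8, 530.7 and 786.9 with vehicle and 507.7, 583.9 and 1208.3 with 3-AP. XRCC1 read 320.7, 311.1 and 354.8 with vehicle and 303.1, 337.4 and 539.0 with 3-AP. In BC1 the ratios of 3-AP to vehicle were 1.54 and 1.52, against 0.945 to 1.10 in BCP1 and BCBL1. Their means of 0.23 ± 0.13 and 0.21 ± 0.13 did not pass.

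The response of BC1 was then compared with the mean response of BCP1 and BCBL1. Of 25 genes 4 passed, all with the more positive value in BC1, against 13.3% of all features. The difference in log2 fold change was 0.59 for ERCC1 (limma adjusted p = 0.00578), 0.59 for XRCC1 (0.00615), 0.58 for WEE1 (0.00712) and 0.49 for ATM (0.0289), each ± 0.17 (SE). A second well detected ERCC1 probe had log2 fold changes of 0.11, 0.06 and 0.61. The sign in BC1 was opposite to that of both other lines for 4 genes, ATRIP, RAD17, WEE1 and ATM. The share of all features with such signs is not given here. Some values lay near 0, as for ATM in BCBL1 (-0.02) and RAD17 in BC1 (0.08). The second detected probes of ATRIP and ATM kept this pattern, and that of RAD17 (0.16, -0.13 and 0.09) did not. The test of the BC1 response had 1 residual degree of freedom, the gap between BCP1 and BCBL1, whose arrays were alike. In it limma gave every feature the same standard error. After background subtraction none of the 4 passed (adjusted p = 0.247 to 0.323). On the mean of kept probes WEE1 and XRCC1 passed, but each has a single probe, so that setting leaves their values unchanged. ERCC1 and ATM did not pass in that setting. For ERCC1 that mean takes in a dim probe with 0.07 in BC1. For ATM it takes in a second probe, detected on all 4 arrays, with -0.50, -0.17 and 0.08.

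**Figure D3:**
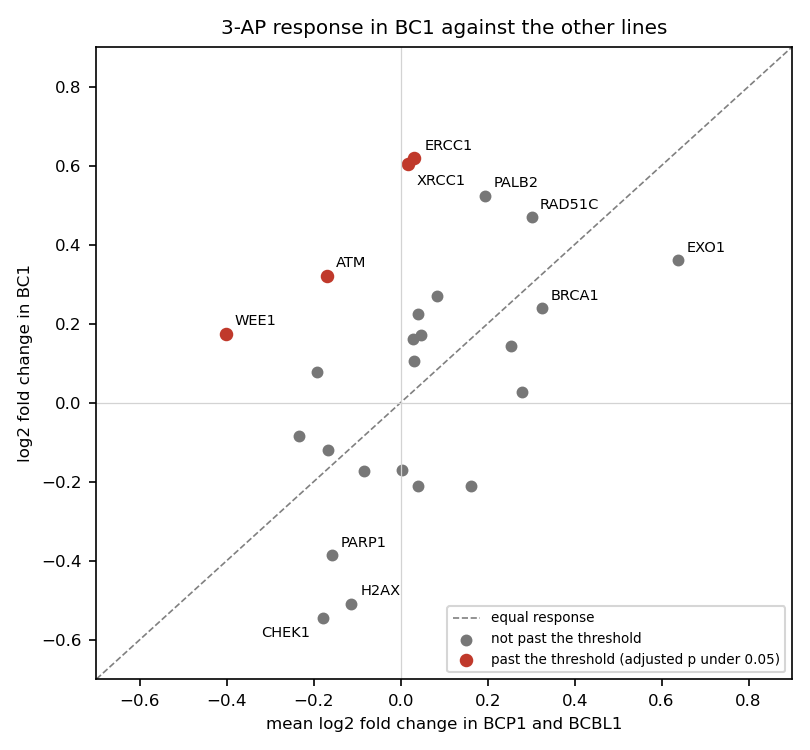
Log2 fold change with 3-AP in BC1 (y axis) against the mean of BCP1 and BCBL1 (x axis) for 25 genes, with a dashed line of equal response. Red points passed the test of the difference at an adjusted p under 0.05. ERCC1, XRCC1, ATM and WEE1 lie above the dashed line, and CHEK1 and H2AX lie below it without passing.

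Without BC1, the pairs BCP1 and BCBL1 alone gave calls for 6 of 25 genes, against 23.0% of all features. EXO1, BRCA1, RAD51C, FANCG and RAD18 were higher with 3-AP and WEE1 was lower. WEE1 had a log2 fold change of -0.40 there (adjusted p = 0.000341). BRCA1 had 0.33 (adjusted p = 0.00510), RAD51C 0.30 (0.0107), FANCG 0.28 (0.0196) and RAD18 0.25 (0.0381). In this limma fit the adjusted p followed the size of the mean change, not how well the 2 pairs agreed for a gene. Outside the set, MSH3 had 0.14 and 0.48 (mean 0.31, adjusted p = 0.00894). PARP3 had 0.35 and 0.28 (mean 0.32, adjusted p = 0.00672). The 2 pairs of arrays also resembled each other. Removing BCP1 or BCBL1 left no gene of the set past the threshold.

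Levels also differed between lines whatever the agent. After a further quantile step across the 6 arrays, 10 of 25 genes passed the limma F test of line, against 28.7% of features. Of these 8 were highest in BC1, and the share of all called features highest in BC1 is not given here. BARD1 had log2 levels of 9.41, 9.06 and 10.58, so BC1 was 2.55-fold above the mean of the others (F test adjusted p = 0.000416). WEE1 was 2.01-fold above, with levels of 9.10, 9.03 and 10.08. BRCA1 was 1.79-fold, ERCC1 1.80-fold, CHEK2 1.57-fold, FANCI 1.57-fold, XRCC3 1.5-fold and BLM 1.48-fold higher in BC1.

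PARP1 ran the other way, at log2 levels of 13.08, 13.07 and 12.46, and was 1.53-fold higher in the mean of BCP1 and BCBL1 than in BC1 (F test adjusted p = 0.00666). RAD51C passed with BCP1 highest, at 10.59 against 10.07 in BCBL1 and 10.18 in BC1. BCP1 and BCBL1 did not differ for any of the 25 genes in this fit (smallest adjusted p = 0.278, for RAD51C), where 18 features of all did. In a fit of those 2 lines alone, without BC1, 3 genes did pass between them, RAD51C (adjusted p = 0.000164), CHEK1 (0.0155) and BARD1 (0.0312), so whether these lines differ for the 3 genes depends on the fit. The 8 genes high in BC1 and the lone gene low in BC1 held those places under vehicle as well, as the intensities of BARD1 (632.5, 558.7 and 1409.9) and PARP1 show.

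**Figure D4:**
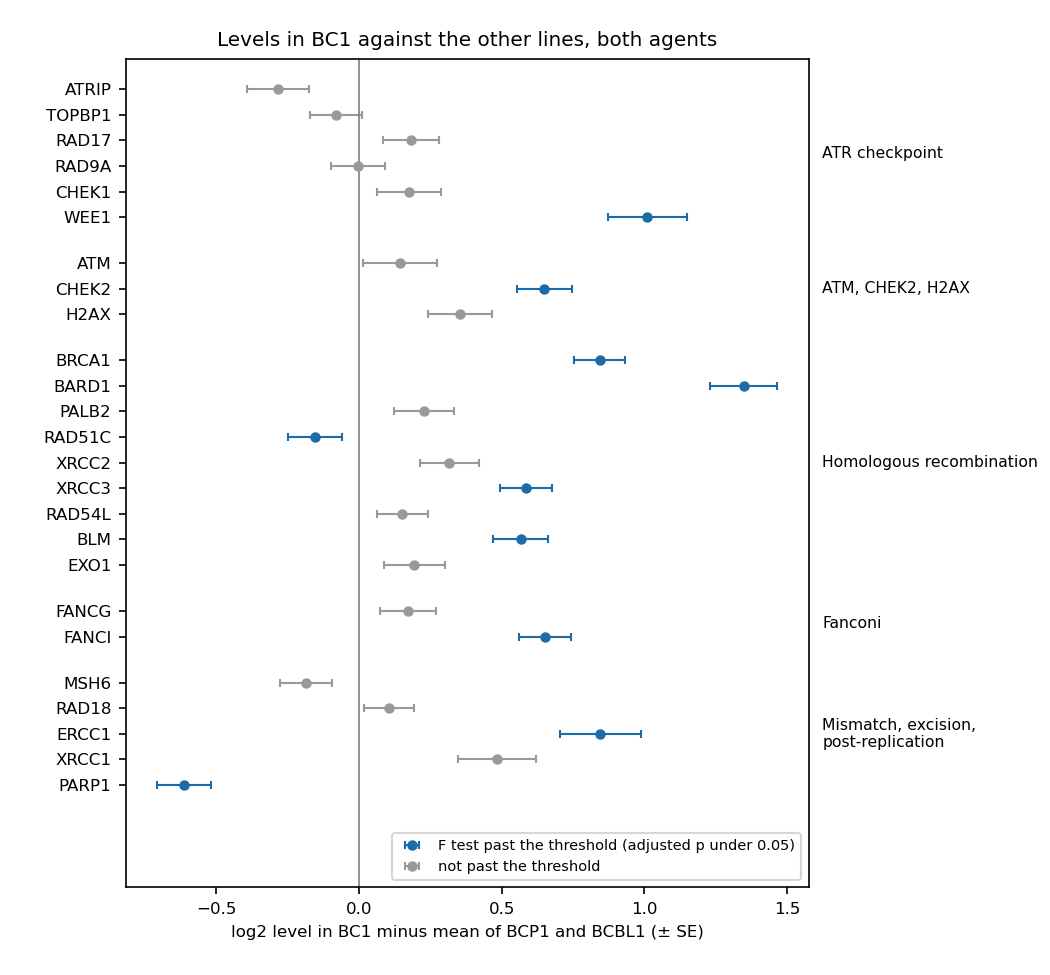
Log2 level in BC1 minus the mean of BCP1 and BCBL1 (x axis, with standard error) for 25 genes (y axis), averaged over vehicle and 3-AP. Blue points passed the F test of line. BARD1 at 1.35 and WEE1 at 1.01 lie farthest to the right, and PARP1 at -0.61 lies farthest to the left.

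Of 122 tested checkpoint and repair genes outside the set, 7 were higher and 3 were lower with 3-AP, 10 in all, beside the 7.11% of features called. Their median log2 fold change was 0.04. Among 27 recombination genes 5 were called higher, where 3.71% of all features were. These 5 calls, and the other 5, were lost after background subtraction, without the block, without BCP1 or BCBL1, and with those lines averaged. RAD51AP1, which acts in strand pairing, read 1507.2, 1254.3 and 1758.3 with vehicle and 2022.0, 1774.0 and 2311.9 with 3-AP. Those groups did not overlap, and the rise was 1.36-fold (log2 0.44 ± 0.08 SE, adjusted p = 0.0268). SWI5 rose 1.40-fold, the helicase gene RECQL 1.36-fold, the topoisomerase gene TOP3A 1.32-fold and PSMC3IP 1.28-fold. RECQL, TOP3A and PSMC3IP had further detected probes, whose values are not given here. On the mean of kept probes 7 of the 122 genes were called, in place of 10. No recombination gene in either list was called lower. In the list outside the set 18 of 27 means were positive and 9 negative, the lowest at -0.38 (limma adjusted p = 0.0515).

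In the checkpoint list 1 of 18 was higher, TP53BP1, which favours end joining (1.37-fold, adjusted p = 0.0333), and 1 was lower, MDC1, which binds phosphorylated H2AX (log2 -0.42, adjusted p = 0.0337). MDC1 read 2066.7, 1941.7 and 1859.6 with vehicle and 1435.4, 1481.8 and 1471.1 with 3-AP, without overlap. NBN (-0.28) and RNF8 (-0.24) did not pass. The nucleotide excision gene RAD23B fell (log2 -0.44), alone among 18, and the Ku subunit gene XRCC5 fell (log2 -0.37), alone among 8 end joining genes. The flap endonuclease gene FEN1 rose 1.29-fold, alone among 20 base excision and strand break genes.

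None of 13 Fanconi, 4 mismatch repair and 14 translesion or post-replication genes passed. FANCL (0.37, adjusted p = 0.0517) and FAAP20 (0.27) had the smallest p-values in the Fanconi list, followed by FANCF (-0.27) and CENPS (0.15). In the mismatch list the values were -0.42 for PMS1, 0.27 for MSH3, -0.13 for PMS2 and -0.08 for MLH3. In the translesion list UBE2N had -0.22, SPRTN -0.18, HLTF -0.18 and REV3L 0.15. ERCC8 (-0.22), ERCC3 (0.21) and GTF2H4 (-0.17) followed RAD23B, and APEX1 (-0.34), PARP3 (0.29) and LIG3 (-0.28) followed FEN1. DCLRE1C (0.28), XRCC6 (-0.23) and LIG4 (0.22) followed XRCC5.

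Cell cycle genes shifted in the same arrays and are given as context. Of 20 S phase genes 5 were called higher and none lower, where 3.71% of all features were called higher, with RRM2 at 1.78-fold, CCNE1 at 1.67-fold, CDT1 at 1.51-fold and RRM1 at 1.33-fold. The list was mixed, with 12 positive and 8 negative means, among them MCM6 (log2 -0.40) and GINS2 (-0.37). After quantile normalization across arrays 1 S phase gene was called lower. Of 20 G2 and mitosis genes 15 fell and none rose, where 3.4% of features were called lower. CDC20 was 3.22-fold lower, PLK1 2.57-fold, HMMR 2.27-fold and AURKA 2.22-fold. The median log2 fold change was 0.11 over the S phase list and -0.69 over the mitotic list. After background subtraction no gene of either list passed (limma adjusted p = 0.0503 for PLK1 and 0.0694 for RRM2), while the medians were 0.12 and -0.78. Without BCP1 the counts were 1 higher S phase gene and 8 lower mitotic genes, and without BCBL1 3 and 11. How much of the values of EXO1, RAD51AP1 or FEN1 moved with the share of cells in S phase was not tested.

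**Figure D5:**
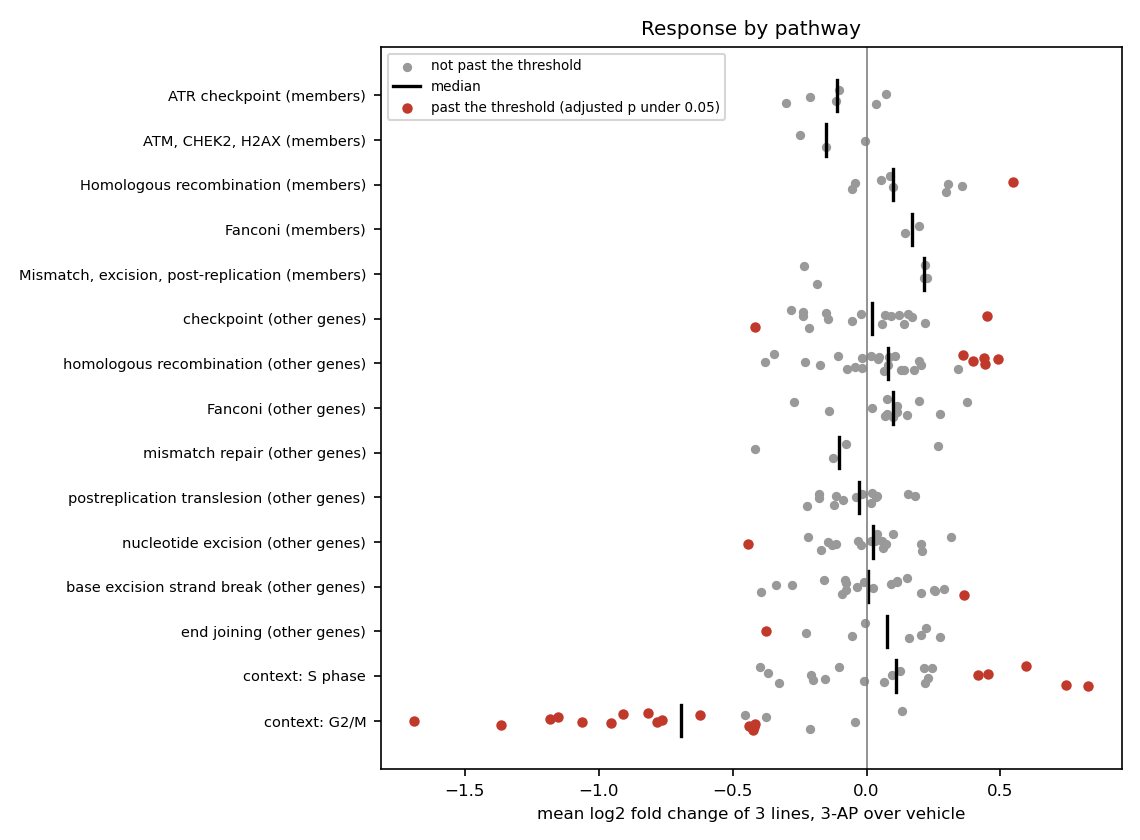
Mean log2 fold change of 3 lines (x axis) for every tested gene of each list (rows), with vertical bars at the list medians and red points past an adjusted p of 0.05. Checkpoint and repair lists centre near 0 with few red points, whereas 15 of 20 G2 and mitosis genes are red and to the left.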

How the data were processed

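Total RNA of 6 cultures was labelled for Illumina bead arrays, per the labels' protocols. The authors deposited a processed linear intensity for 47323 probes and a non-normalized table with detection p-values. The sources used here do not give the scanner software or the normalization. Sorted values of a line's arrays were nearly equal (largest log2 gap 0.064 outside the top 100), so the authors' intensity values look quantile normalized within lines. Both non-normalized signal columns under the BCP1 name were identical to processed BCBL1 values (100% of probes). Their deposited p-values matched those of BCBL1 for at least 99.985%. These BCP1 columns entered no test.

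Log2 processed intensities were used without background subtraction, which compresses folds, because BCP1 has no detection p-values of its own. In the background-subtracted alternative, BCP1 was lent the mean detection profile of the 4 arrays of BCBL1 and BC1, by rank of signal. For BCP1 that alternative is therefore not a background correction from its own arrays. Probes with a 0 on any array (13) were dropped, as were probes not detected (p under 0.05) on at least 2 of the 4 arrays of BCBL1 and BC1. The brightest kept probe stood for a gene, which left 15334 features, 10820 with a symbol. Symbols came from the platform annotation (30113 probes with 1 symbol, 8 with several, 17202 unnamed here). R 4.3.3 with limma 3.58.1 fitted line as a block plus agent (2 residual and 5.41 prior degrees of freedom), and p-values were Benjamini-Hochberg adjusted over all features at 0.05. The labels pair the samples by line, and deviations of paired arrays correlated at 0.79, 0.82 and 0.87 for BCP1, BCBL1 and BC1, against 0.62 and 0.63 crossed between BCP1 and BCBL1. Fits were run on simulated data with independent errors on each array, which does not cover the likeness of BCP1 and BCBL1. Alternatives are listed in the closing section.

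The members and lists were chosen with earlier results of these data known. Named genes were all members, every other pathway gene that passed, and the 4 smallest p-values of each list. Promoters are RefSeq windows (GRCh38.p14).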

Additional observations from a re-analysis of the deposited data

Results flagged for a closer look

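The following genes had a response in BC1 that differed from the mean response of BCP1 and BCBL1 by the limma test of the difference itself. Over all features 13.3% passed that test, beside 4 of 25 genes of the set and 14 of 122 other pathway genes. Shown are those among the genes named in the report. Positive values mean a higher log2 fold change in BC1. For each gene the responses of BCP1, BCBL1 and BC1 follow in that order. WEE1 differed by 0.58, with -0.39, -0.42 and 0.17. ATM differed by 0.49, with -0.32, -0.02 and 0.32. ERCC1 differed by 0.59, with -0.08, 0.14 and 0.62. XRCC1 differed by 0.59, with -0.08, 0.12 and 0.60. Outside the set, the mismatch repair gene PMS1 differed by -0.59, with -0.19, -0.24 and -0.81, and the mitotic gene CDC20 by -0.66, with -1.40, -1.54 and -2.13. None of the 6 passed after background subtraction (adjusted p from 0.243 for PMS1 to 0.323 for ATM). Each line had a single pair of arrays, and the cause was not tested.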

How the results depend on the processing

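Of 324 values of single genes under 13 alternatives, 301 kept their direction and side of the threshold, 6 lost the call (all EXO1), 6 gained it and 11 changed sign. EXO1 stayed positive in all 13. It kept its call in 7, and its adjusted p ran from 1.65e-09 (without BC1, where it followed the size of the change alone) to 0.340. The count of features called (1090) was 26 after background subtraction, 12 with no replicate block, 11 on the non-normalized signals of BCBL1 and BC1, 34 with BCP1 and BCBL1 averaged, and 72 to 3530 when a line was left out. The count of set genes called (1) was 0 in the first 4 of these, 2 with no filter (RAD51C, adjusted p = 0.0484), and 0 to 6 when a line was left out. The count of other pathway genes called (10) was 0 in those 4 and 0 to 31 when a line was left out. It was 6 with line as a random block and 7 on the mean of kept probes. Genes past the F test of line (10) numbered 3 to 11 when a line was left out, the lowest without BC1. Genes past the BC1 response test (4) numbered 0 after background subtraction and 2 on the mean of kept probes, both with a single probe.

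Sign changes occurred for ATRIP, ATM, BARD1, XRCC2 and BLM, whose main values lay between -0.06 and 0.10. On the non-normalized signals ATRIP had -0.051, ATM 0.19 and BARD1 -0.0038. With BCP1 and BCBL1 averaged ATRIP had -0.025 and ATM 0.076. When a line was left out, ATRIP ran from -0.037 to 0.161, ATM from -0.169 to 0.149, XRCC2 from -0.142 to 0.040 and BLM from -0.139 to 0.0018. The sign changed without BCP1 or BCBL1 for ATRIP and ATM, and without BC1 for XRCC2 and BLM. The replicate block, which is the pairing by line, is supported by the labels. The cause of the lost calls was not tested. Of 78 medians of gene groups 6 moved by more than the spread between lines, namely recombination to 0.25 without BCBL1, the ATM branch to -0.24 after background subtraction and -0.35 on the non-normalized signals, and mismatch, excision and post-replication repair to 0.014 under a stricter filter, 0.46 on the non-normalized signals and 0.018 without BC1. The number of arrays, 3 per group, limits the precision.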

Other observations

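Several genes of the set had more than 1 detected probe, and the probes did not always give the same size of change. For RAD51C the 3 detected probes had mean log2 fold changes of 0.36, 0.15 and 0.07, and in BCP1 they were 0.37, 0.00 and -0.01. For ATM the pair of detected probes had -0.01 and -0.20, and in BC1 0.32 and 0.08. For RAD17 they had -0.10 and 0.04, and for XRCC2 -0.04 and 0.04, which differ in sign. For ERCC1 the 2 probes detected on all 4 arrays had 0.23 and 0.26, and for CHEK2 -0.15 and -0.12. Which transcript each probe reads was not examined.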
